A study of Arabidopsis thaliana with 12 samples.

Results

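The probes described here are the brightest single-gene probes of an Arabidopsis thaliana expression array whose values in psao mutant and wild-type (WT) plants overlapped. The deposited intensities were log2 transformed where positive and quantile normalized over the 12 arrays. Of 692 probes paired with 1 gene, 481 had a value on every array, and in 391 of these the range of the psao arrays overlapped that of the WT arrays. The 80 with the highest mean over all arrays were taken. Of 10 listed genes to be left out, mostly of photosynthesis, 9 were among them, which leaves 71 probes for 71 genes, of 3439 probes on the array. The probes were thus selected on their level and on the overlap of the genotypes, both measured on these 12 arrays, so their levels and their psao minus WT differences are descriptions and carry no test. The name "most abundant transcripts" could not be checked, because the brightness of a probe depends on the probe as well as on its transcript; the genes are therefore called bright probes below, and their order is an order of signal.

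The psao mutant is without the PSI-O protein, which belongs to photosystem I, and total RNA of mutant and WT plants was compared on 6 arrays each. Both genotypes were of ecotype Columbia 0. The labels do not give tissue, age, growth conditions or the nature of the psao allele, nor whether the arrays came from separate plants. All spreads below are therefore spreads between arrays, which may be technical. None of 16 marker genes for green tissue, seeds, roots and stress had a single-gene probe, so the tissue could not be checked.

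Photosystem I takes electrons from plastocyanin and passes them to ferredoxin in the light, and PSI-O is one of the subunits beside which mobile light-harvesting complex II can bind. Transcripts of nuclear genes for plastid proteins are known to respond to the redox state of the photosynthetic electron chain.

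In the deposited table each array is scaled so that its brightest probes stand at 100. Between 1 and 4 probes per array stood at that value. None of the 71 bright probes did so on any array, and their highest deposited value was 76.7, so that none was at the upper end of the scale. The deposited median of all probes lay between 0.198 and 0.273 in psao arrays and between 0.0970 and 0.195 in WT arrays. The 71 bright probes together held 6.45% to 8.82% of the summed signal of a psao array and 5.33% to 8.50% of that of a WT array, so the genotypes overlapped in this share too. Arrays of the same genotype resembled each other in sets of 2 (numbers 1 with 2, 3 with 4, 5 with 6), here called couples; this is seen in the values and is not in the labels. The lowest shares of both genotypes were those of arrays 1 and 2. Exact zeros made up 4.22% to 7.33% of psao arrays and 4.68% to 15.1% of WT arrays, with the highest 2 values in WT arrays 1 and 2.

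After quantile normalization the mean level of a bright probe ran from 0.566 to 51.8 (intensity relative to 100), with a median of 0.947, beside 0.265 over the 2507 probes with a value on every array. In all, 698 probes reached the level of the dimmest of the 71. Of these, 425 were not listed in the platform annotation, 155 were paired with several genes and 118 with 1 gene. Among the 118, 38 had genotype ranges that did not touch, 9 were the genes left out, and the other 71 are the bright probes. Over all 481 single-gene probes with complete values, the ranges were separate in 18.7%.

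The psao minus WT differences of the 71 bright probes were small for most genes and lay on both sides of zero. The psao mean was higher for 40 genes and lower for 31. The median difference was 0.10 log2 units, beside -0.04 over all 3187 probes tested, and the mean was 0.07. The middle 50% of the differences ran from -0.34 to 0.46 for the bright probes and from -0.61 to 0.62 for all probes. The median size without regard to direction was 0.41 for the bright probes, beside 0.62 for all probes. In 42 of the 71 genes the means differed by less than 0.5 log2 units and in 5 by at least 2-fold, which 26.9% of all tested probes did. The choice of overlapping ranges favours small differences, so nothing is read from the smaller sizes of the bright probes. In the fit across all probes (limma, Benjamini-Hochberg adjusted p under 0.05), 11 bright probes passed, 5 higher and 6 lower in psao, against 29.8% of all tested probes, and 7 passed without psao array 6, WT array 3 or WT array 5. Since the choice of overlapping ranges limits such calls, nothing is read from that count. With the array number as a replicate block 21 passed, against 34.2% of all probes, with couples as a random block 1 passed, against 10.4%, and with couples averaged 0 passed in limma, against 2.0% (60 of 3001 probes), although 2 had an unadjusted p under 0.05. Median centring of the arrays, in place of quantile normalization, gave a median difference of -0.30 for the bright probes, with 20 higher and 51 lower, beside a median of -0.08 for all probes. It moved the difference of every one of the 71 downward, by -0.78 to -0.09 log2 units with a median of -0.35, so positive differences below are smaller or turn negative under it, and negative ones are farther from zero. With values as deposited the medians were 0.23 for the bright probes and 0.43 for all, with 44 higher and 27 lower. The balance of directions thus depended on the scaling, and differences below are relative to the quantile-normalized distribution.

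**Figure D1:**
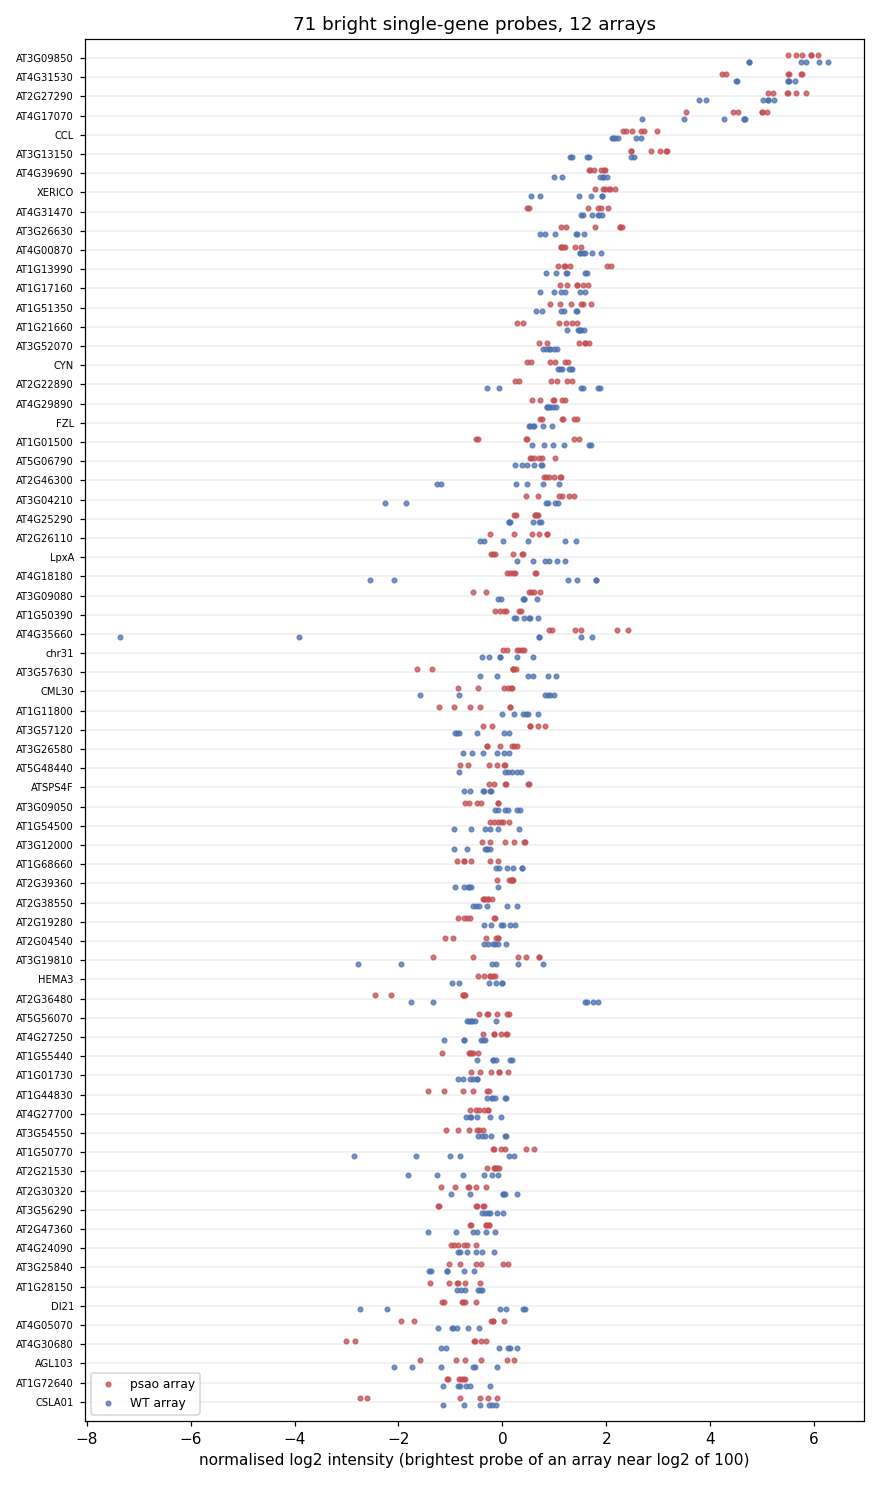
Normalised log2 intensity (x axis) of the 71 bright single-gene probes (rows, brightest at the top) on the 6 psao arrays (red points) and the 6 WT arrays (blue points). In every row the red and blue points overlap, which the choice of probes fixed, while the width of the rows differs widely, from a tight AT4G00870 to AT4G35660 with 2 WT points far to the left.

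A gene function could be given for 28 of the 71 genes. The RefSeq table used for names holds symbols but no product descriptions, and 12 of the genes have a symbol there other than their locus code. Functions of genes written with a locus code are general knowledge of that locus. The classes below were made after the values had been seen, and their counts carry no test.

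Genes of light, hormone and stress responses were 4 of the 71, with 3 higher and 1 lower in psao. CCL, a gene named for its likeness to the circadian gene CCR and known for mRNA whose stability follows the clock, stood at 5.02, 6.01 and 7.86 (lowest, median and highest normalised intensity) in psao arrays and at 4.30, 4.61 and 6.33 in WT arrays. Its means were 2.60 ± 0.24 log2 units in psao and 2.31 ± 0.24 in WT (SD, n = 6 each), a difference of 0.28 ± 0.17 (SE). This SE and those below come from the fit across all probes, which partly shares the variance between probes. They therefore differ from SEs made from the SDs printed beside them. The fit counts every array as a separate unit. Should couples hold repeats of the same material, these SEs understate the uncertainty. WT arrays 1 and 2 were the high WT arrays of CCL, and on arrays 3 to 6 all psao values lay above all WT values. With median centring the difference of CCL was -0.37, the other direction.

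XERICO, a small RING-type protein that raises abscisic acid levels, stood at 3.44, 4.06 and 4.48 in psao arrays and at 1.47, 3.01 and 3.78 in WT arrays. The genotypes overlapped through a single psao array inside the WT range. The difference was 0.62 ± 0.25 (SE). Given in the order of the couples (arrays 1 and 2 first), as for all couples below, it was 1.38, 0.27 and 0.20, all in the same direction, and it was 0.14 with median centring. DI21, a gene named for its induction by drought, stood at 0.444, 0.585 and 0.705 in psao arrays and at 0.149, 1.01 and 1.36 in WT arrays. All psao arrays of DI21 lay inside the WT range, because WT arrays 1 and 2 lay below them and the other WT arrays above. AT3G04210, a TIR-type disease resistance protein, also had WT arrays 1 and 2 below the other WT arrays and is taken up with the wide probes below.

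Genes for the organisation of plastids and mitochondria were 4, with 3 higher and 1 lower. FZL, a dynamin-like GTPase of the chloroplast that shapes thylakoids, stood at 1.66, 2.23 and 2.70 in psao arrays and at 1.43, 1.52 and 1.93 in WT arrays. It averaged 1.10 ± 0.30 log2 units in psao and 0.66 ± 0.17 in WT (SD, n = 6 each), and the difference of 0.44 ± 0.17 (SE) had the same sign in all 3 couples, at 0.23, 0.53 and 0.56. Under median centring it was 0.07. AT1G54500, a rubredoxin-type protein of the thylakoid, stood at 0.852, 0.963 and 1.10 in psao arrays and at 0.526, 0.821 and 1.24 in WT arrays, so that every psao array lay inside the WT range. AT4G39690, a subunit of the complex that forms cristae in the mitochondrial inner membrane, likewise kept its 6 psao arrays, with a median of 3.58, inside the range of the WT arrays, with a median of 3.74. Its difference of 0.18 ± 0.21 (SE) came to 0.72 in arrays 1 and 2 and to -0.09 in each of the other couples. With median centring it was -0.31.

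AT1G68660, an adaptor that delivers substrates to the plastid Clp protease, was the lower one. It stood at 0.547, 0.630 and 0.938 in psao arrays and at 0.916, 1.11 and 1.31 in WT arrays, with 1 psao array inside the WT range, and its difference was -0.69 ± 0.18 log2 units (SE). Leaving out 1 array was enough to part the genotypes for 16 of the 71 genes, this one included. The share for other probes is not given here, so nothing is read from that count.

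Genes of small-molecule metabolism were 5, with 2 higher and 3 lower. LpxA, an acyltransferase of the lipid A route that plants share with bacteria, stood at 0.858, 1.03 and 1.32 in psao arrays and at 1.22, 1.81 and 2.31 in WT arrays. Its difference of -0.74 ± 0.20 (SE) had the same sign in all 3 couples, at -1.06, -0.73 and -0.41. HEMA3, a member of the glutamyl-tRNA reductase family that starts tetrapyrrole synthesis, stood at 0.727, 0.846 and 0.902 in psao arrays and at 0.511, 0.875 and 0.995 in WT arrays. All psao arrays of HEMA3 lay inside the WT range, and the difference was 0.10 ± 0.20 (SE). It came to 0.71 in arrays 1 and 2 and to -0.19 and -0.22 in the other couples, and was -0.22 with median centring.

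CYN, the cyanase that breaks down cyanate, ranged from 1.39 to 2.39 in psao arrays and from 2.11 to 2.52 in WT arrays, with a difference of -0.31 ± 0.18 log2 units (SE). AT4G29890, a choline monooxygenase-like protein, had a difference of 0.01 ± 0.15 (SE) and one of the smallest spreads, with a residual SD of 0.18 log2 units about the genotype means. AT2G04540, a ketoacyl synthase of mitochondrial fatty acid synthesis, differed by -0.28 ± 0.22 (SE), with -1.02 in arrays 1 and 2 but 0.17 and 0.01 in the other couples, and it was -0.15 without psao array 2.

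Genes of sugar metabolism and the cell wall were 5, with 3 higher and 2 lower. ATSPS4F, a sucrose-phosphate synthase, the enzyme that commits carbon to sucrose, stood at 0.834, 1.04 and 1.42 in psao arrays and at 0.598, 0.776 and 0.855 in WT arrays. A single psao array lay inside the WT range. The difference was 0.54 ± 0.19 (SE) and was positive in all 3 couples (0.54, 0.34 and 0.74), and it was 0.18 with median centring. AT1G17160, a ribokinase, differed by 0.22 ± 0.18 (SE), with the other sign in arrays 1 and 2 (-0.37) than in the other couples (0.61 and 0.40), and with median centring it was -0.20.

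CSLA01, a cellulose synthase-like protein of the mannan-making CSLA family, was the dimmest of the 71. Its range was 0.149 to 0.935 in psao arrays and 0.453 to 0.922 in WT arrays. Its difference of -0.68 ± 0.48 (SE) came to -1.74 in arrays 1 and 2 and to -0.03 and -0.27 in the other couples, and without psao array 1 it was -0.37. AT3G57630, a glycosyltransferase that adds arabinose to extensins of the cell wall, differed by -0.76 ± 0.41 (SE), with all 3 couples negative (-1.23, -0.75 and -0.30).

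Genes of transcription, chromatin and signalling were 6, with 3 in each direction. AT4G00870, a bHLH transcription factor, had the smallest residual SD of the 71, at 0.16 log2 units. It stood at 2.18, 2.28 and 2.87 in psao arrays and at 2.82, 2.96 and 3.74 in WT arrays. Its difference of -0.37 ± 0.15 (SE) was nearly the same in the 3 couples, at -0.35, -0.40 and -0.36, and 1 psao array lay inside the WT range.

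AT2G39360, a receptor-like kinase, stood at 0.930, 1.12 and 1.15 in psao arrays and at 0.532, 0.636 and 0.941 in WT arrays, a difference of 0.73 ± 0.16 (SE) that was positive in each couple and 0.37 with median centring. AT1G44830, of the AP2/ERF transcription factors, had a difference of -0.63 ± 0.22 (SE), negative in each couple. Chromatin remodeling 31 (chr31), a protein of the CLASSY family that takes part in RNA-directed DNA methylation, ranged from 1.01 to 1.33 in psao arrays, with a median of 1.24, wholly inside the range of the WT arrays, with a median of 0.969. AGL103, a MADS-box protein, ranged from 0.333 to 1.16 in psao arrays and from 0.235 to 0.925 in WT arrays. CML30, a calmodulin-like protein, ranged from 0.556 to 1.14 in psao arrays, inside the WT range of 0.334 to 1.99.

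Genes of RNA processing were 4, with 2 in each direction. AT3G13150, a pentatricopeptide repeat (PPR) protein, the family that edits, splices and stabilises organelle RNA, stood at 5.55, 7.72 and 9.02 in psao arrays and at 2.46, 3.13 and 5.76 in WT arrays. It averaged 2.86 ± 0.32 log2 units in psao and 1.82 ± 0.55 in WT (SD, n = 6 each), and the difference of 1.04 ± 0.26 (SE), 2.05-fold, was positive in all 3 couples (0.66, 0.83 and 1.62). With median centring it was 0.44. WT arrays 1 and 2 were its highest WT arrays and psao arrays 3 and 4 its lowest psao arrays, and these made the overlap. Within arrays 3 to 6 all psao values lay above all WT values.

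AT3G26630, also a PPR protein, stood at 2.18, 4.11 and 4.93 in psao arrays and at 1.65, 2.34 and 2.96 in WT arrays, and its difference of 0.67 ± 0.27 (SE) was positive in all 3 couples but 0.22 with median centring. The PPR protein AT2G19280 had a difference of -0.50 ± 0.19 (SE), negative in all 3 couples. AT2G30320, a pseudouridine synthase, differed by -0.49 ± 0.24 (SE), with the same sign in each couple.

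The other 43 genes are known here by their locus code, with 24 higher and 19 lower in psao and a median difference of 0.11 log2 units. The brightest, AT3G09850, stood at 45.3, 58.0 and 67.7 in psao arrays and at 26.8, 55.4 and 77.2 in WT arrays. All its psao arrays lay inside the WT range, and the difference by couples was 1.26, -0.07 and -0.48. AT4G31530 stood at 18.8, 45.6 and 54.2 in psao arrays and at 22.7, 45.3 and 49.8 in WT arrays, a difference of -0.02 ± 0.35 (SE). AT2G27290 differed by 0.77 ± 0.29 and AT4G17070 by 0.53 ± 0.39 (SE), in both with the highest value of the couples in arrays 1 and 2 (1.64 and 1.23). With median centring these differences were 0.18 and -0.04, and that of AT4G17070 was 0.26 without WT array 1. These 4 brightest probes had residual SDs from 0.49 to 0.71 log2 units, above the median of the 71, 0.34. AT4G31470 differed by -0.33 ± 0.29 (SE), with couples at -1.04, -0.08 and 0.11. Its difference was 0.02 on arrays 3 to 6 and -0.15 without psao array 1, so its direction rests on arrays 1 and 2.

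The overlap of the genotypes was of several kinds. In 17 genes all 6 psao arrays lay within the WT range, in 10 genes 1 did so, and the median was 3. The choice fixed that the ranges overlap, and shares for other probes are not given here, so nothing is read from these counts. For 1 gene, AT4G05070, no psao array lay within the WT range although the ranges overlapped. Its psao arrays ranged from 0.258 to 1.03 and its WT arrays from 0.425 to 0.731, so that psao arrays stood on both sides of the WT arrays: the couples differed by -0.73, 0.71 and 0.49.

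The couples differed in how far apart the genotypes stood. The psao minus WT difference was at least 2-fold for 24 of the 71 genes (33.8%) in the couple of arrays 1 and 2. Arrays 3 and 4 gave 3 such genes (4.23%), and arrays 5 and 6 gave 5 (7.04%). Over the 2507 probes with complete values these shares were 47.5%, 24.1% and 22.5%. The median size of the difference was 0.65, 0.35 and 0.35 log2 units in the 3 couples for the bright probes, beside 0.94, 0.58 and 0.55 for all. The bright probes were chosen for overlapping ranges on these same arrays, which favours small differences. Nothing is therefore read from their lower shares and sizes. The psao mean was above the WT mean in 37, 38 and 36 of the 71 genes in the 3 couples. It was above in all 3 couples for 22 genes, below in all 3 for 19 and mixed for 30. A common sign in all 3 couples was found for 57.6% of the probes with complete values, 26.8% higher and 30.8% lower in psao.

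**Figure D2:**
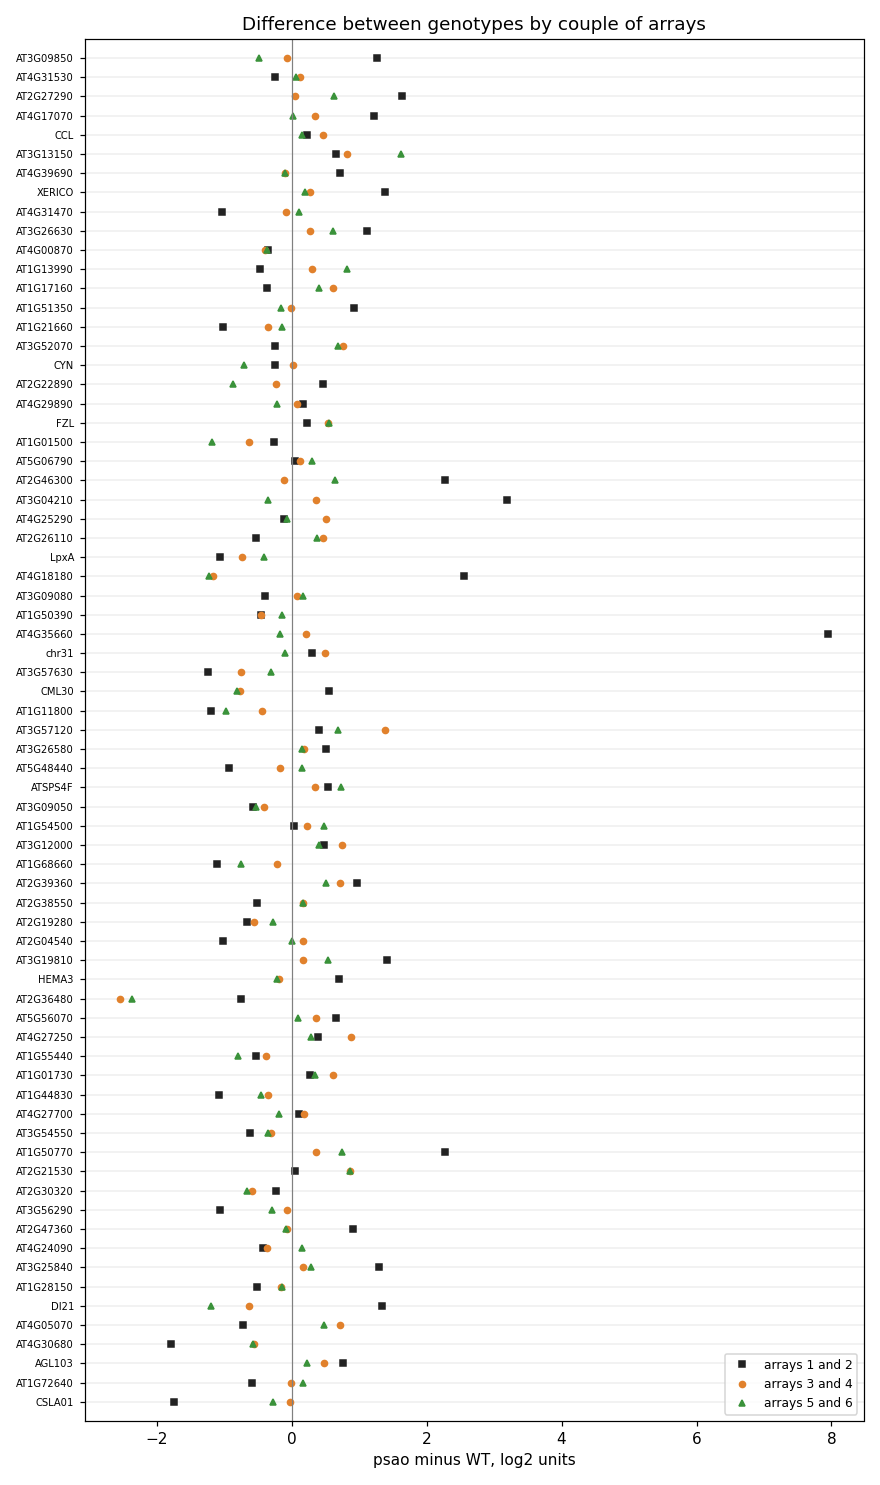
Psao minus WT difference in log2 units (x axis) of each of the 71 bright probes (rows, brightest at the top), computed separately in arrays 1 and 2 (black squares), arrays 3 and 4 (orange circles) and arrays 5 and 6 (green triangles). The squares lie farthest from zero in 45 of the 71 rows (63.4%), with AT4G35660 at 7.95. Arrays 1 and 2 gave the widest difference for 56.4% of all probes with complete values too. At least 1 log2 unit from zero lie 3 circles and 5 triangles.

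Arrays of a couple mostly gave close values, with exceptions. Psao arrays 1 and 2 of AT4G17070 stood at 11.7 and 34.0. WT arrays 1 and 2 of AT4G35660 stood at 0.0663 and 0.00608. The mean gap between the arrays of a couple had a median of 0.16 log2 units over the bright probes, beside a median gap between couple means of the same genotype of 0.43. The gap between couples was the wider one in 67 of the 71 genes. Over all probes with complete values the medians were 0.28 within and 0.56 between couples. The residual SD about the genotype means had a median of 0.34 log2 units for the bright probes, 0.36 for all 698 probes at least as bright, and 0.50 for all 2507.

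**Figure D3:**
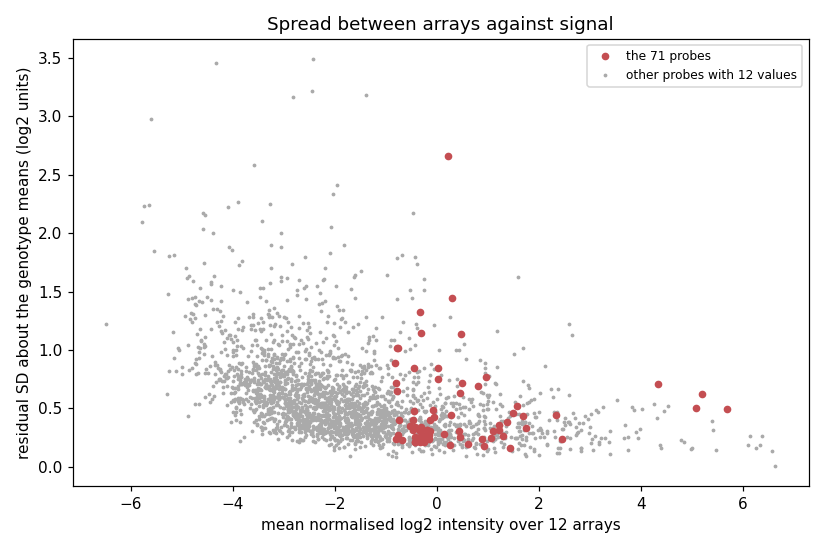
Residual SD about the genotype means (y axis, log2 units) against the mean normalised log2 intensity over 12 arrays (x axis) for the 71 bright probes (red) and the other probes with complete values (grey). The median residual SD was 0.34 for the red points and 0.50 for all probes, and AT4G35660 stands highest among the red points at 2.65.

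Arrays 1 and 2 were often the extreme arrays of their genotype. In psao they lay below all other psao arrays for 33 genes and above them for 11, and in WT below all other WT arrays for 36 genes and above them for 13. Arrays 1 and 2 were thus the lowest of their genotype for 46.5% of the bright probes in psao and 50.7% in WT, beside 30.9% and 31.3% of all probes with complete values. They were the highest for 15.5% of the bright probes in psao and 18.3% in WT, beside 23.2% and 20.8% of all. The widest probes shared the low position of WT arrays 1 and 2. A residual SD of at least 0.7 log2 units, a limit chosen after the values were seen, was found in 15 genes. In 15 of these 15 WT arrays 1 and 2 lay below the other WT arrays. In 8 of them psao arrays 1 and 2 were also the lowest of psao. A couple that lies apart from its genotype itself widens the residual SD, so the limit favours such probes. The share for other wide probes is not given here, so nothing is read from these counts. WT arrays 1 and 2 are also those with the lowest deposited medians and the most zeros; the part of this in the pattern was not tested.

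AT4G35660 had the largest difference of the 71, 2.66 ± 1.38 log2 units (SE), 6.34-fold. It stood at 1.85, 2.73 and 5.36 in psao arrays and at 0.00608, 1.63 and 3.31 in WT arrays. The low WT values were those of array 2 (0.00608) and array 1 (0.0663), and the other WT arrays ranged from 1.63 to 3.31, overlapping the psao arrays. By couples the difference was 7.95, 0.21 and -0.17. Fitted on arrays 3 to 6 only, it was 0.02, so the fold rests on arrays 1 and 2; without WT array 2 alone it was 1.39.

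AT3G04210, the resistance protein, stood at 1.37, 2.18 and 2.61 in psao arrays and at 0.208, 1.81 and 2.09 in WT arrays, with couple differences of 3.19, 0.36 and -0.35. Its difference of 1.06 ± 0.60 (SE) became 0.01 on arrays 3 to 6 and 0.61 without WT array 2. AT2G46300 had 2.28, -0.11 and 0.64 in the couples and AT1G50770 had 2.27, 0.36 and 0.74, against differences over all arrays of 0.94 ± 0.39 and 1.12 ± 0.46 (SE), which were 0.27 and 0.54 on arrays 3 to 6. Without WT array 2 that of AT1G50770 was 0.74. AT3G19810 followed with 1.41, 0.17 and 0.54.

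AT4G18180, a pectin lyase-like protein, showed the reverse case. It stood at 1.07, 1.17 and 1.57 in psao arrays and at 0.170, 2.56 and 3.49 in WT arrays, and its difference over all arrays was 0.05 ± 0.76 (SE). WT arrays 1 and 2 were at 0.235 and 0.170, below every psao array, and WT arrays 3 to 6, from 2.39 to 3.49, were above every psao array. The couple differences of 2.55, -1.16 and -1.23 thus cancelled in the mean. In CML30 (0.55, -0.76 and -0.81) and DI21 (1.34, -0.63 and -1.19) the couples likewise had opposite signs.

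AT2G36480 had the lowest difference, -1.88 ± 0.69 log2 units (SE), 3.69-fold lower in psao. It stood at 0.183, 0.591 and 0.604 in psao arrays and at 0.296, 3.06 and 3.59 in WT arrays. Arrays 1 and 2 were the low arrays of both genotypes here, so the genotypes overlapped although the couples all had the same sign, at -0.74, -2.54 and -2.36. AT4G30680 (-0.97 ± 0.54) and AT1G11800 (-0.86 ± 0.25, SE) also had 3 negative couples. Those of AT4G30680 were -1.78, -0.56 and -0.57, and its difference was -0.54 on arrays 3 to 6 and -0.63 without psao array 1.

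**Figure D4:**
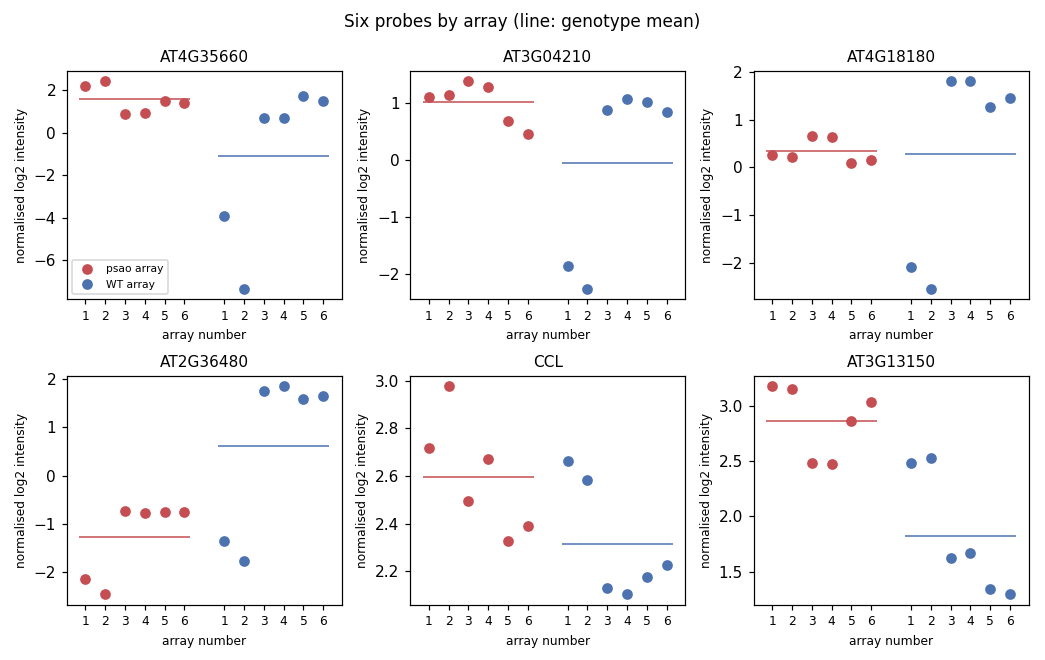
Normalised log2 intensity (y axis) of 6 bright probes on psao arrays 1 to 6 (red, left) and WT arrays 1 to 6 (blue, right), with lines at the genotype means. WT arrays 1 and 2 lie far below the other WT arrays in AT4G35660, AT3G04210, AT4G18180 and AT2G36480 and above them in CCL and AT3G13150.

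Within arrays 3 to 6 the genotypes did not overlap for 25 of the 71 genes (35.2%), 11 higher and 14 lower in psao, and they overlapped for 46. Among all probes with complete values the ranges of arrays 3 to 6 were separate in 43.6%, with 19.9% higher and 23.7% lower in psao. Probes separate over 12 arrays are separate on arrays 3 to 6 too, and the choice kept these out of the 71. The lower share of the bright probes is thus partly set by the choice, and nothing is read from it. CCL, FZL, AT1G17160 and AT3G13150 were among the 11, and CML30, DI21, AT4G00870, AT4G18180, AT3G57630, AT2G30320 and AT2G36480 among the 14. For these 25 genes the overlap over 12 arrays therefore needed a value from arrays 1 and 2.

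At the opposite end were probes with little spread between arrays. AT5G06790 ranged from 1.44 to 2.02 in psao arrays and from 1.19 to 1.70 in WT arrays, with a residual SD of 0.19 and a difference of 0.16 ± 0.16 log2 units (SE). AT1G50390 had a residual SD of 0.19 with a difference of -0.34 ± 0.16 (SE) and 3 negative couples. Apart from spread, in 42 of the 71 genes the genotypes differed by less than 1.5-fold both in arrays 3 and 4 and in arrays 5 and 6. That count leaves out arrays 1 and 2 and includes AT4G35660, the widest of the 71. The choice of overlapping ranges favours small differences, and the share for other probes is not given here. Nothing is therefore read from the count.

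The lower limit in level falls between close values. The dimmest of the 71 were AGL103, AT1G72640 and CSLA01, with mean levels of -0.80, -0.80 and -0.82 log2 units. The next probes that met the other conditions were AT1G79220, AT5G06990 and AT2G04790, at -0.84, -0.84 and -0.87. Their differences were -0.85, 0.19 and 0.50 log2 units, within the span of those inside. Taking out all 10 listed genes first would add these and 6 further probes, 80 in all. The brightest single-gene probes kept out because the genotypes were separate were AT1G62250, CUTA, NdhS and AT2G33180. CUTA, a plastid protein of the copper-tolerance CutA family, stood at 7.26, 7.81 and 8.14 in psao arrays and at 13.0, 14.2 and 17.1 in WT arrays. NdhS, the ferredoxin-binding subunit of the chloroplast NDH complex, stood at 10.9, 11.1 and 15.7 in psao arrays and at 4.50, 5.56 and 6.87 in WT arrays. The residual SDs of these 2 probes were 0.11 and 0.20 log2 units.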

How the data were processed

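Intensities of 3439 probes on 6 psao and 6 WT arrays were taken as the authors deposited them; they are scaled to the brightest probe of each array, at 100, and hold exact zeros, as read from the values. The labels do not describe background treatment or other earlier steps. Genotype and array number were read from the sample titles. Single-gene probes came from the platform annotation, and 690 of 692 matched RefSeq (TAIR10.1). Zeros were set missing before log2, and arrays were quantile normalized (limma 3.58.1, R 4.3.3). A fit across 3187 probes with at least 4 values per genotype (lmFit, eBayes, two-sided, Benjamini-Hochberg, threshold 0.05) gave differences, SEs and the background counts. It was also run on simulated data with independent arrays and no couples. That run therefore says nothing about calls where arrays come in couples. The number of arrays limits the precision.

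Members, lists and alternatives were chosen with earlier results of these data known. Named are the 10 brightest members, those with the 5 highest and 5 lowest differences, the 4 narrowest and 4 widest, the 3 on each side of the level limit, and 4 bright probes with separate ranges; other members were named for their function, after their values were seen. Planned role patterns matched 2 of 71 symbols and were not used. Promoter and protein features were not analysed here. Same-numbered psao and WT arrays deviated together across probes, with r from 0.146 to 0.254; what a number means is not in the labels. The fit reported here has no pair term, and the array number enters as a replicate block in an alternative fit.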

Additional observations from a re-analysis of the deposited data

Results flagged for a closer look

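Of 70 sets of 6 values tested for a far array, 1 held one, and chance alone would give about 3.5 (1 in 20). In NdhS, one of the bright probes with separate ranges, psao replicate 5 stood at 3.97 log2 units, with the nearest other psao array at 3.62. No set of the 71 overlapping probes that are named by rule held a single far array; their low values came in couples, which this test of 1 array does not see.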

How the results depend on the processing

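With the array number as a replicate block, 1090 of all probes and 21 of the 71 bright probes passed in limma, against 949 and 11 without the block. With couples averaged, 60 of all probes and 0 of the bright probes passed in limma (2 at an unadjusted p under 0.05); with couples as a random block these were 330 and 1. With arrays 3 to 6 alone, and at least 3 values per genotype, 1228 of the probes tested and 23 bright probes passed. The rule then chose 46 of the 71 again. With dim probes left out, only probes above the median level were tested, which lowers the number tested. Of those, 755 passed, 19 of them bright probes. The numbers tested in these settings are not given, so the bright counts have no share beside them and nothing is read from them. Leaving out each array in turn gave 786 to 939 calls over all probes and 7 to 10 among the bright ones, with 7 without psao replicate 6, WT replicate 3 or WT replicate 5, and the rule chose 67 to 70 of the 71 again. The median difference of the bright probes was then 0.05 to 0.17, and it was -0.30 under median centring, where the cause of the turn was not tested. With values as deposited, 77.4% of all calls were higher in psao, against 49.7% after quantile normalization. For 35 single genes under the 17 settings that can change a difference, 36 of 595 values, in 11 genes, had the other sign. Some of the 35 were named for extreme differences or separate ranges, and most of the settings leave out a single array. That share therefore does not speak for all 71 bright probes. Among the 71, 20 changed sign under median centring, 13 on arrays 3 to 6 alone and 6 with values as deposited. No background level could be read from the deposited values.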
